A study of Mus musculus with 108 samples.

Results

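The genes described here are 46 genes of DNA replication and cell division, chosen by name and found through the platform annotation's gene symbols, with the brightest probe taken for each. They fall into 21 replication genes, which act in S phase or in entry to it, and 25 mitotic genes, which act in G2, mitosis or cytokinesis. Of the 15129 genes with a value in the series, 45 are members, because no probe of Ccnb1 held a value. The samples are livers of ovariectomized female C57BL/6 mice gavaged with Wy-14643 or with clofibrate, each at 300 mg/kg in sesame oil, or with sesame oil alone, the vehicle. Mice were killed 2, 4, 8, 12, 18 or 24 h after a single dose (2H to 24H), or 1, 4 or 14 days after the start of daily dosing (1D, 4D and 14D). Each compound had its own time-matched vehicle groups, so the series holds 108 single-colour arrays in 36 groups of 3, and 54 arrays make up an arm of compound and vehicle. Ovariectomy was shared by every group, vehicle included, and no male or intact mice were part of the series. The labels do not state whether the 2 arms used separate vehicle mice.

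Wy-14643 and clofibrate are peroxisome proliferators, compounds that activate the nuclear receptor PPARα, and in rodents such compounds make hepatocytes enlarge and divide. Adult liver is otherwise mostly quiescent. A cell entering the cycle first loads the MCM helicase onto replication origins with the help of Cdc6 and Cdt1, then makes deoxynucleotides and copies its DNA. The genes of this step are classically driven by E2F factors. The genes of mitosis follow later and are switched on largely through the CHR and CCAAT elements bound by the DREAM and MuvB complexes and NF-Y.

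Promoter sequences show this division in letters that the arrays did not use. RefSeq promoter windows of the GRCm38.p6 assembly, from 250 bases before to 50 bases after the start of a gene, were at hand for 39 of the 46 members. The words TTTCCCGC, TTTCGCGC, TTTGCCGC and TTTGGCGC, searched on both strands as E2F-type sites, stood in the windows of 7 of 18 replication genes (38.9%), 1 of 21 mitotic genes (4.76%) and 2.6% of all 27025 genes. A gene with several windows counted once. The CHR word TTTGAA stood in those of 15 of 21 mitotic genes (71.4%), 2 of 18 replication genes (11.1%) and 20.2% of all genes. The word CCAAT stood in those of 85.7% of mitotic genes, 50% of replication genes and 41.1% of all genes. A match describes the letters only and is not a binding site. The 250 bases before the start are printed below for 2 helicase genes and 4 mitotic genes on which the results turn. Capitals mark the E2F words, TTTGAA and CCAAT on either strand. They are Mcm5 (chr8:75109259-75109508, plus strand), Mcm6 (chr1:128359706-128359955, minus strand), Cdk1 (chr10:69352913-69353162, minus strand), Plk1 (chr7:122159185-122159434, plus strand), Cdc20 (chr4:118437344-118437593, minus strand) and Ccnb2 (chr9:70421555-70421804, minus strand).
Mcm5: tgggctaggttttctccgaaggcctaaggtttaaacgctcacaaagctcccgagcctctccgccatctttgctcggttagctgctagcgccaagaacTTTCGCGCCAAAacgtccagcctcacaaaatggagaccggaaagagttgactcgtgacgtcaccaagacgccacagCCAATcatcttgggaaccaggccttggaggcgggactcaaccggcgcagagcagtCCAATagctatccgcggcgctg
Mcm6: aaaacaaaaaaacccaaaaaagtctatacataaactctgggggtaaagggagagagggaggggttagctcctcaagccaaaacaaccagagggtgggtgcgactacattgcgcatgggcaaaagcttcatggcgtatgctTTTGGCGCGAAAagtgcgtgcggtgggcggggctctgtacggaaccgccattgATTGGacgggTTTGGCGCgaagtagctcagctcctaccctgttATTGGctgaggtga
Cdk1: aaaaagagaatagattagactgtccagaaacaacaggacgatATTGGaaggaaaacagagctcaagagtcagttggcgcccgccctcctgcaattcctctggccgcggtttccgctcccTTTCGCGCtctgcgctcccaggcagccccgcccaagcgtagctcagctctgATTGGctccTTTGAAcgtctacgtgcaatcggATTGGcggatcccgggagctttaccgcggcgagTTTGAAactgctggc
Plk1: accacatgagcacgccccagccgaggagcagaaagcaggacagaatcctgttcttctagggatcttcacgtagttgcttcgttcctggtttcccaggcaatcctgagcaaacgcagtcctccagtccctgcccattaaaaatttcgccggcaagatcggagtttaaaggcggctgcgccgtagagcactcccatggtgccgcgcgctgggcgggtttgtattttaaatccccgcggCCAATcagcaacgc
Cdc20: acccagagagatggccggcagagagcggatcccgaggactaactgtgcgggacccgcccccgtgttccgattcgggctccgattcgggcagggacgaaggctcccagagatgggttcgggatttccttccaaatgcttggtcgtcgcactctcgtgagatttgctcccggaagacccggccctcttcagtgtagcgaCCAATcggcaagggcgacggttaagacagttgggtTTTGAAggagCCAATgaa
Ccnb2: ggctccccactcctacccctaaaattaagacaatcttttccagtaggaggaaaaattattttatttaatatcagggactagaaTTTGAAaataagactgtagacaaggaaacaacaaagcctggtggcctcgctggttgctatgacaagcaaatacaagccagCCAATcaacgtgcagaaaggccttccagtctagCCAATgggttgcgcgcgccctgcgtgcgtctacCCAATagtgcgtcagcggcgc
In Mcm5 and Mcm6 a longer run in capitals is 2 E2F words on opposite strands that overlap. The TTTGAA of Plk1 lies after the start and outside the printed bases.

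Of 8 hepatocyte markers, 7 were listed on every array, with mean levels of 14.96 to 15.79 on the log2 scale, several of them at the scanner's ceiling near log2 16; Cps1 was not listed. The arrays listed 15750 to 22227 probes each, and their number per group, 3, limits the precision. A probe absent from a group was nearly always empty on all of its arrays, so a member not listed has no level here and was not tested. Members listed were fewest after clofibrate, 27 to 38 per group, and most after Wy-14643 at 1D, with all 45. In the clofibrate arm, the 14D vehicle array of replicate 1 was a near-copy of the 4D vehicle array of replicate 1 (r = 0.99998 over probes), and the main results resting on the pair are given with and without it. Pdk4, a PPARα target that restrains glucose oxidation, was higher after Wy-14643 at 9 of 9 times and after clofibrate at 3 of 9, and Ehhadh, an enzyme of peroxisomal β-oxidation, at 8 and 7 of the 9. At 4D none of the 3 target genes tested was called after clofibrate, but Ehhadh read near the ceiling in compound and vehicle alike. Pdk4 there read 9.66, 10.22 and 9.67 on the clofibrate arrays and 11.47, 11.05 and 10.91 on the vehicle arrays, with no overlap. This was the opposite sign to its calls after clofibrate. Pdk4 overlapped vehicle after clofibrate at 18H, with 11.93, 11.37 and 11.96 against 11.97, 11.85 and 11.36. At 14D it did so too, with 12.28, 9.68 and 11.01 against 11.48, 9.79 and 11.02. Ehhadh, in turn, was high in vehicle at 4D, where it was called higher than at the other vehicle times in both arms. It read 15.85, 16.09 and 15.99 after Wy-14643 at 4D and 16.14, 15.73 and 15.75 after vehicle, and 15.86, 15.99 and 16.28 after clofibrate and 15.84, 15.96 and 15.89 after its vehicle. Vehicle arrays of the Wy-14643 arm at the other times read 11.46 to 14.87. Compound and vehicle arrays at 4D both read near the ceiling, so a difference between them could not be seen for this gene. Pdk4 at 4D read 12.87, 12.43 and 12.58 after Wy-14643 and 11.13, 10.43 and 10.88 after vehicle, with no overlap.

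Livers of mice given Wy-14643 held more mRNA of 6 replication genes at 18H and of genes of both classes from 24H to 14D. A gene was called where limma's Benjamini-Hochberg adjusted p over all genes tested was under 0.05, and differences are log2 levels after the compound minus those of time-matched vehicle. Counts of members with an unadjusted p under 0.05 are given without the share of all genes at that threshold. They cannot be read against the shares called. Over the 18 replication genes tested at all 9 times, the median difference in time order was -0.18, -0.34, -0.12, 0.29, 0.70, 0.69, 1.14, 0.80 and 0.78. Over the 16 such mitotic genes it was 0.00, -0.01, -0.17, -0.22, 0.24, 1.31, 1.26, 1.25 and 1.44. At 12H the medians had opposite signs and were both small, at 18H the replication median was the higher, and from 24H the mitotic median was. The difference between the classes was not tested. The median over all genes lay between -0.15 and 0.02. In whole liver, more cells in the cycle and more mRNA per cell cannot be told apart.

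**Figure D1:**
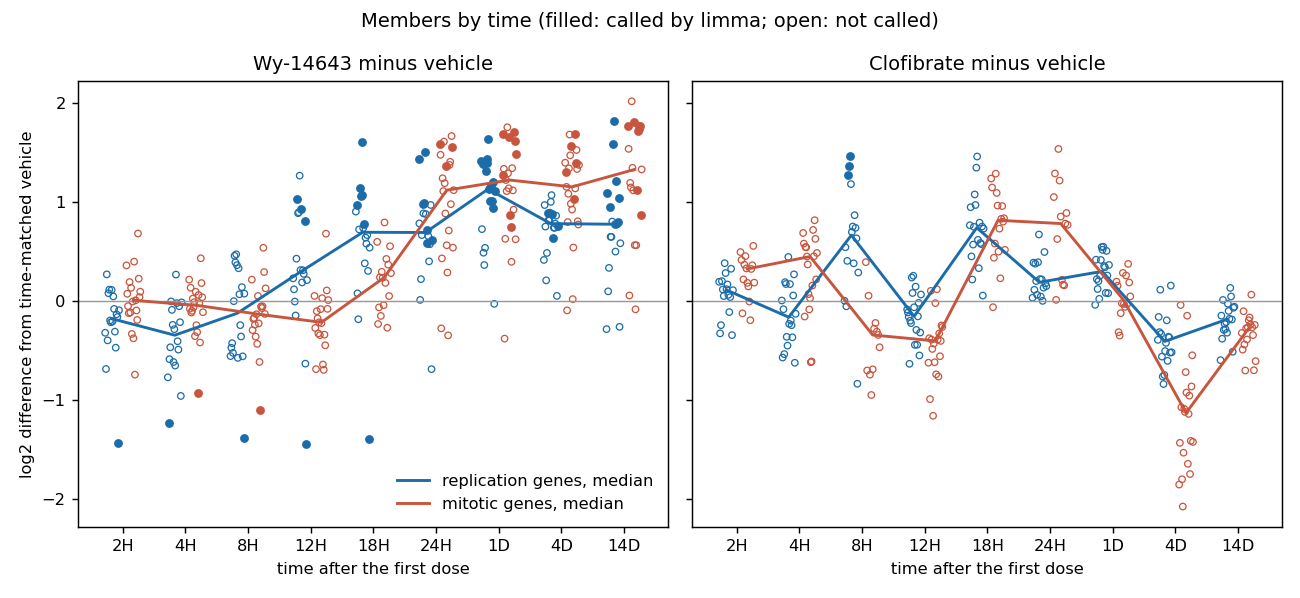
Difference from time-matched vehicle (log2, vertical) at 9 times (horizontal) for each member, Wy-14643 left and clofibrate right, with filled points where called by limma and lines for the class medians. After Wy-14643 the replication median is 0.70 at 18H and the mitotic median is 0.24, while at 14D they are 0.78 and 1.44.

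**Figure D2:**
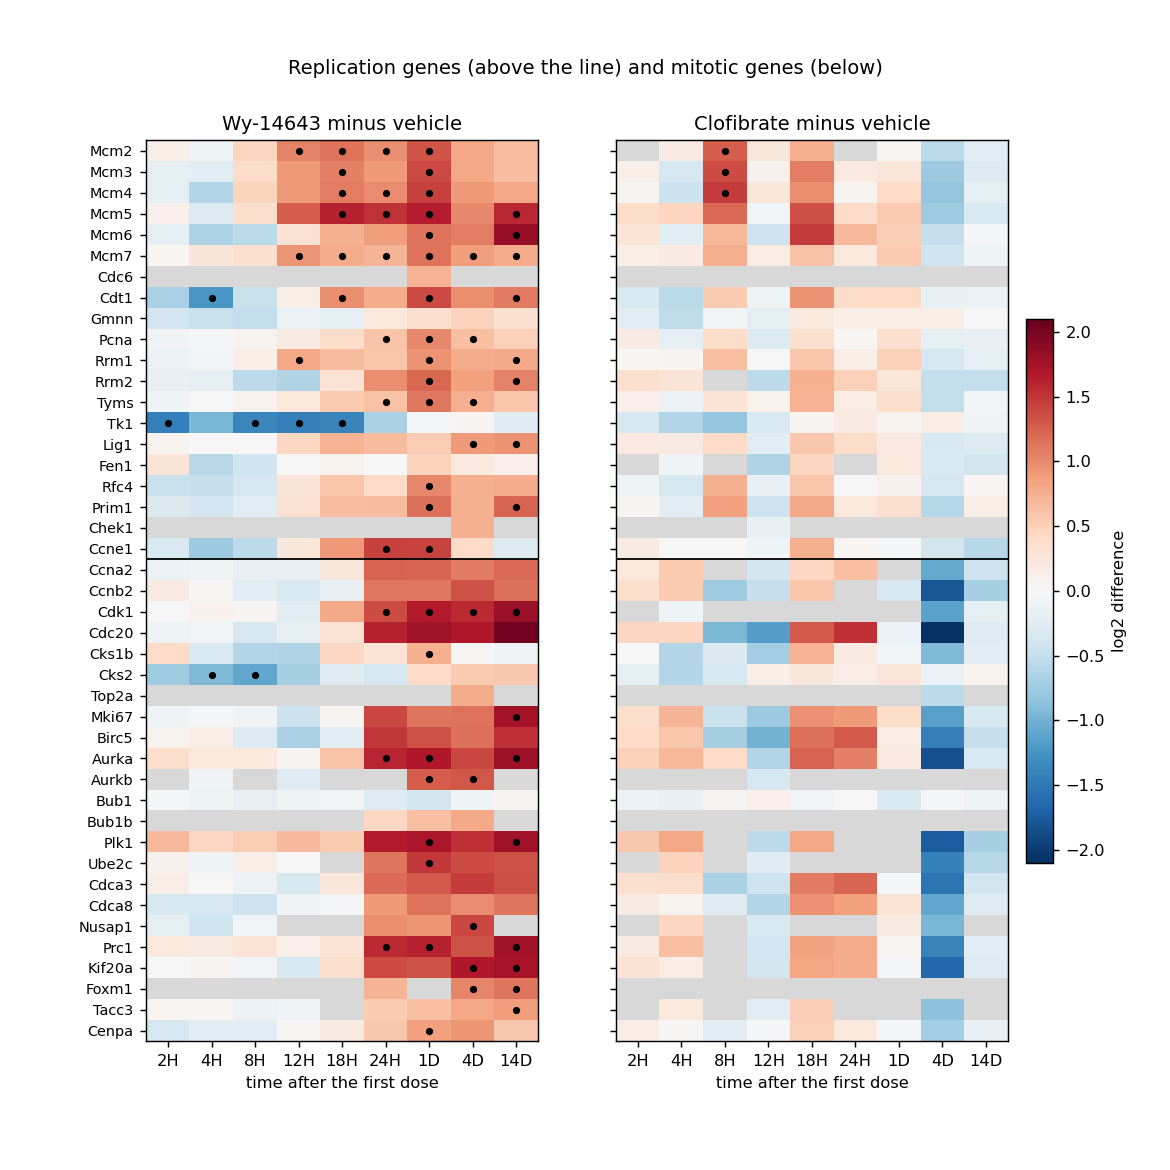
Difference from time-matched vehicle (log2, colour) for the members (rows, replication genes above the line) at 9 times under each compound (columns), with dots where called and grey where not tested. Higher calls after Wy-14643 lie in replication genes at 12H and 18H and in both classes from 24H. Lower calls lie in Tk1, Cdt1 and Cks2 between 2H and 18H. Calls after clofibrate lie in 3 MCM genes at 8H.

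The early hours held a few lower values. Tk1, the thymidine kinase that salvages thymidine for DNA synthesis, read 9.18, 11.75 and 12.13 after Wy-14643 at 2H and 12.35, 12.51 and 12.49 after vehicle. The Wy-14643 arrays all lay below the vehicle arrays, 1 of them by over 3 log2 units. Its difference of -1.43 ± 0.41 (SE, limma, adjusted p = 0.0319) was the 1 call among 37 members tested, where 2.23% of all genes were lower, and it was lost without Wy-14643 replicate 1 or without any 1 of the vehicle arrays. With replicate number as a block, 2 members were lower at 2H, against 9.14% of all genes. At 8H Tk1 read 10.91, 11.09 and 10.87 after Wy-14643 and 12.41, 12.29 and 12.29 after vehicle, groups that were tight and apart (-1.38, adjusted p = 0.0137). Tk1 was also lower at 12H (-1.44 ± 0.41, adjusted p = 0.00817) and at 18H (-1.39, adjusted p = 0.00965). From 24H to 14D its differences of -0.69, -0.03, 0.05 and -0.26 did not pass the test.

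Also lower were Cdt1, which loads the helicase, and Cks2, a small subunit that binds cyclin-dependent kinases. Cdt1 read 9.57, 9.79 and 9.20 at 4H after Wy-14643 and 10.82, 10.78 and 10.63 after vehicle (-1.23, adjusted p = 0.0219). Cks2 read 12.67, 12.01 and 11.80 at 8H after Wy-14643 and 13.54, 13.24 and 12.99 after vehicle (-1.09, adjusted p = 0.0022). Neither pair of groups overlapped. These were 2 of 38 members lower at 4H (Cks2 the other, -0.93, with overlapping arrays) and 2 of 37 at 8H, against 6.34% and 9.22% of all genes, and limma called 0 members higher at 2H, 4H or 8H, against 2.08%, 4% and 6.94% of all genes. Members with an unadjusted p under 0.05, in either direction, were 2 at 2H, 4 at 4H and 4 at 8H. The 4H count was 0 without vehicle replicate 1 or Wy-14643 replicate 3, and 1 without replicate 2 of either group.

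The first members called higher, at 12H, were Mcm2 and Mcm7 of the MCM helicase, the ring of 6 subunits that unwinds DNA at the fork, and Rrm1. At 12H Mcm2 read 10.26, 9.54 and 10.29 after Wy-14643 and 8.92, 9.50 and 8.56 after vehicle, and Mcm7 read 13.08, 12.17 and 12.78 after Wy-14643 and 11.89, 11.96 and 11.39 after vehicle. In both genes every Wy-14643 array lay above every vehicle array, replicate 2 after Wy-14643 by little. The rises were 2.05-fold for Mcm2 (1.04 ± 0.29, adjusted p = 0.00761) and 1.90-fold for Mcm7 (0.93 ± 0.24, adjusted p = 0.00358). Rrm1, the large subunit of ribonucleotide reductase, rose by 0.81 ± 0.28 (adjusted p = 0.0318), with overlapping arrays. With Tk1 lower, 3 of 37 members were higher and 1 lower, against 9.47% and 10.1% of all genes, so the count at 12H was no higher than the share of all genes. With replicate number as a block, 6 were higher and 2 lower (16.5% and 19.4% of all genes). The total of 4 was 7 without replicate 2 of either group and 2 without vehicle replicate 3 or Wy-14643 replicate 1.

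At 18H, 6 of 34 members were higher, all of them replication genes, and 1 lower, against 10.2% and 12.2% of all genes. They were Mcm2 (1.15, adjusted p = 0.00274), Mcm7 (0.78, adjusted p = 0.0134), Mcm5 (1.61 ± 0.48, adjusted p = 0.0118), Mcm4 (1.07), Mcm3 (1.06) and Cdt1 (0.97). Mcm5 read 11.08, 11.48 and 10.21 after Wy-14643 and 10.85, 8.16 and 8.93 after vehicle. Vehicle replicate 1 was high and inside the treated range, and the arrays of Mcm3, Mcm4, Mcm7 and Cdt1 overlapped too. Of 16 mitotic genes tested at 18H, 0 were called by limma, 0 had an unadjusted p under 0.05 and 0 were called with the block, which raised the replication count to 11 (17.1% of all genes). The mean level of the 10 mitotic genes listed on every array was 10.06, 10.04 and 9.49 after Wy-14643 and 10.39, 9.13 and 9.71 after vehicle, so the groups overlapped. The total of 7 calls was 16 without vehicle replicate 1. It was 1 and 2 without vehicle replicate 2 and 3, and 3 without Wy-14643 replicate 1 or 2.

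At 24H, mitotic genes joined. Cdk1, the kinase that drives entry to mitosis, read 8.98, 9.29 and 8.63 after Wy-14643 and 7.23, 7.41 and 8.15 after vehicle, with no overlap (1.37, adjusted p = 0.0278). Aurka, a kinase of the spindle poles (1.59, adjusted p = 0.0422), and Prc1, which bundles the microtubules of the central spindle (1.56, adjusted p = 0.0406), were the other mitotic genes called, 3 of 21. Ccne1, the cyclin that starts S phase, read 9.85, 9.26 and 9.41 after Wy-14643 and 7.86, 8.01 and 8.33 after vehicle, clearly apart (1.44 ± 0.41, adjusted p = 0.012). With Mcm2, Mcm4, Mcm5, Mcm7, Tyms and Pcna, 7 of 18 replication genes and 10 of 39 members rose and 0 fell, against 6.71% of all genes higher and 10.5% lower; 29 had an unadjusted p under 0.05. In 27 members all 3 Wy-14643 arrays lay above all vehicle arrays, as in 13.1% of all genes. The block gave 18 members higher (12.9% of all genes). The count was 0 without vehicle replicate 1 or Wy-14643 replicate 1, 4 without vehicle replicate 2 and 3 without Wy-14643 replicate 2.

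The 1D groups held the most calls, 22 of 40 members higher and 0 lower, against 7.39% of all genes higher and 15.9% lower. Among the replication genes, 14 of 19 rose. Mcm7 read 13.01, 12.70 and 12.80 after Wy-14643 and 11.99, 11.65 and 11.44 after vehicle, a 2.21-fold rise (1.14 ± 0.24, adjusted p = 0.000477). Mcm2 read 10.18, 10.14 and 10.39 after Wy-14643 and 8.98, 9.30 and 8.49 after vehicle, a 2.49-fold rise (1.31 ± 0.29, adjusted p = 0.000874). The treated arrays were close together, while vehicle replicate 3 was lowest in both genes. Mcm3 rose by 1.39 ± 0.34, Mcm4 by 1.44 ± 0.34, Mcm5 by 1.64 ± 0.48 and Mcm6 by 1.13, so all 6 subunits were called at 1D.

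The genes that build and join DNA moved with the helicase at 1D. Pcna, the sliding clamp of the polymerases, read 13.63, 13.15 and 13.43 after Wy-14643 and 12.65, 12.73 and 11.79 after vehicle (1.01 ± 0.20, adjusted p = 0.000298, 2.02-fold). Tyms, which makes thymidylate, read 12.98, 12.66 and 12.91 after Wy-14643 and 12.04, 12.39 and 10.79 after vehicle (1.11 ± 0.22, adjusted p = 0.000272, 2.16-fold). Both genes had separate groups. Prim1, which lays the RNA primers (1.16, adjusted p = 0.00223), Rrm1 (0.94), Rrm2, the small subunit of ribonucleotide reductase (1.20), Rfc4, of the clamp loader (1.01), Cdt1 (1.39) and Ccne1 (1.41) rose too. Fen1, the flap nuclease (0.49), and Gmnn, the inhibitor of Cdt1 (0.37), did not pass the test at 1D, nor at any other single time.

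Among the mitotic genes, 8 of 21 rose at 1D: Plk1, a kinase of mitotic entry and exit (1.71), Aurka (1.69), Cdk1 (1.66 ± 0.45, 3.16-fold), Prc1 (1.62), Ube2c, which charges the anaphase-promoting complex with ubiquitin (1.49), Aurkb, of the chromosomal passenger complex (1.27), Cenpa, the centromeric histone (0.87), and Cks1b, a kinase subunit (0.75). Cdk1 read 10.66, 10.07 and 10.32 after Wy-14643 and 9.03, 9.78 and 7.26 after vehicle. The Wy-14643 arrays were all higher, and the vehicle arrays spread over more than 2 log2 units, with replicate 3 the lowest. In Plk1, Ube2c and Cenpa the groups overlapped. Vehicle replicate 3 at 1D stood apart beyond the members. In vehicle replicates 1, 2 and 3, Acot1, an acyl-CoA thioesterase, read 13.05, 12.45 and 9.03, Ehhadh read 14.17, 14.14 and 11.46, and the mean of 6 listed neutrophil markers was 8.46, 8.01 and 10.79. Without that array the 1D count was 8, and without Wy-14643 replicate 1 it was 13. Mcm2, Mcm3, Mcm4, Mcm7, Tyms, Pcna and Prim1 kept their call whichever array was left out.

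**Figure D3:**
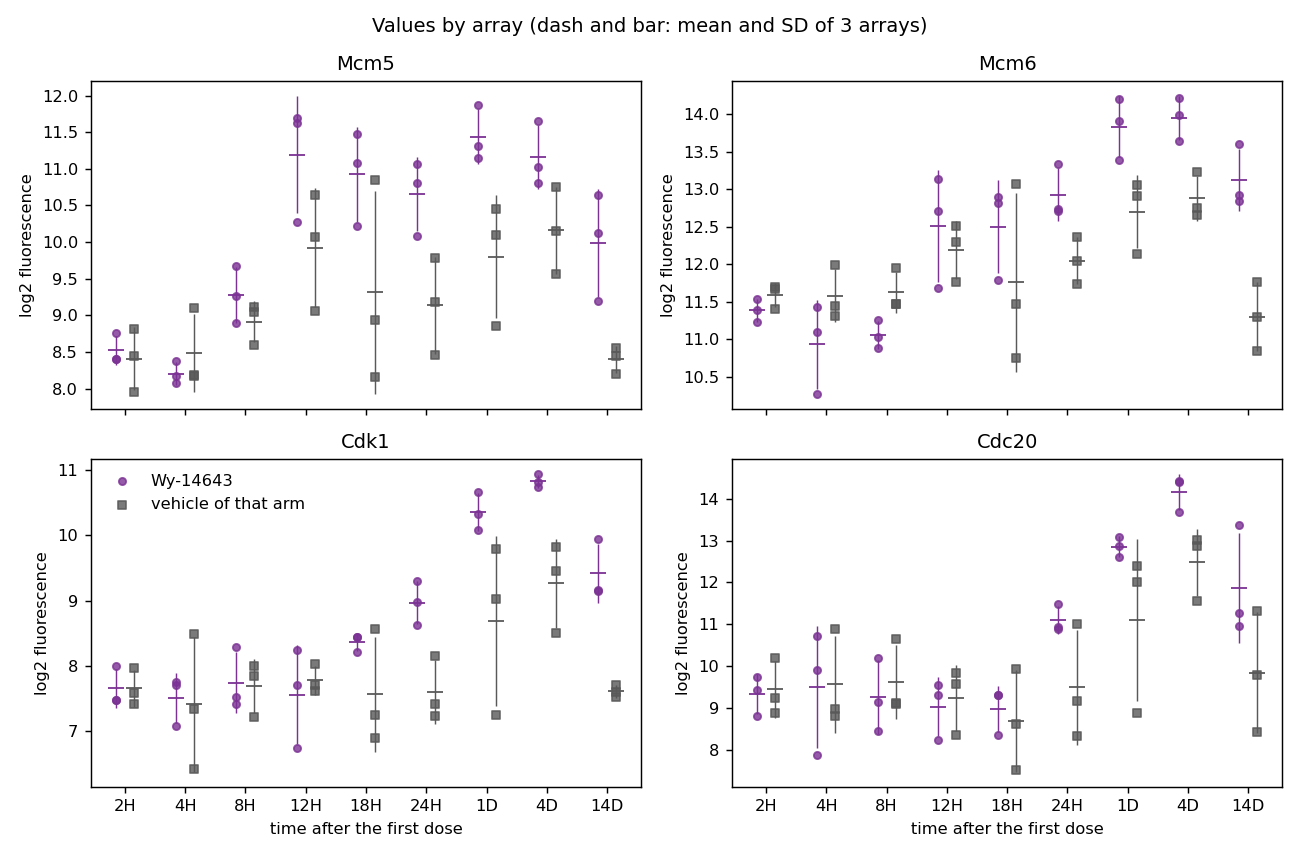
Level on each array (log2, vertical) of Mcm5, Mcm6, Cdk1 and Cdc20 at 9 times (horizontal), Wy-14643 as circles left of vehicle as squares, with the mean and SD of 3 arrays. Mcm5 at 1D reads 11.15 to 11.87 after Wy-14643 and 8.85 to 10.45 after vehicle, and Cdc20 vehicle arrays reach 13.00 at 4D.

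At 4D, 9 of 42 members were higher after Wy-14643 and 0 lower, against 3.95% of all genes higher and 4.3% lower. Kif20a, a kinesin of cytokinesis, read 12.69, 12.87 and 12.73 after Wy-14643 and 11.79, 11.59 and 9.85 after vehicle (1.69 ± 0.55, adjusted p = 0.0496). Cdk1 read 10.80, 10.74 and 10.94 after Wy-14643 and 9.82, 9.46 and 8.50 after vehicle (1.57, adjusted p = 0.0208). The treated arrays were close together in both genes and above all vehicle arrays, whose replicate 3 was lowest. Nusap1, a spindle protein (1.40), Aurkb (1.31 ± 0.31, adjusted p = 0.00654) and Foxm1, the factor that activates mitotic genes (1.03), completed the 5 of 23 mitotic genes. Lig1, the ligase that seals Okazaki fragments (0.89), Mcm7 (0.88), Tyms (0.76) and Pcna (0.64) were the 4 of 19 replication genes.

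More members stood apart at 4D than were called. In 32 of the 42, all 3 Wy-14643 arrays lay above all vehicle arrays, as in 12.3% of all genes, and 36 had an unadjusted p under 0.05. With the block, 22 members were higher (9.66% of all genes). Mcm6 was one of them, with 14.22, 13.64 and 14.00 after Wy-14643 and 13.23, 12.66 and 12.76 after vehicle (1.07, adjusted p = 0.0708 without the block). Top2a, which untangles sister chromatids, read 8.85, 8.78 and 8.56 after Wy-14643 and 8.62, 7.90 and 7.36 after vehicle, with overlap. The count of 9 was 0 without vehicle replicate 3, 1 without Wy-14643 replicate 1, and 3 without vehicle replicate 2 or Wy-14643 replicate 3.

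At 14D, 16 of 37 members were higher and 0 lower, against 9.48% of all genes higher and 5.35% lower. The difference was greatest among called members in Mcm6, which read 13.60, 12.85 and 12.93 after Wy-14643 and 11.30, 10.84 and 11.76 after vehicle, a 3.54-fold rise (1.82 ± 0.38, adjusted p = 0.000497). Cdk1 read 9.15, 9.16 and 9.93 after Wy-14643 and 7.52, 7.60 and 7.71 after vehicle, a 3.50-fold rise (1.81 ± 0.45, adjusted p = 0.00325). Both genes had groups more than 1 log2 unit apart. Aurka read 10.68, 9.90 and 11.86 after Wy-14643 and 8.96, 8.14 and 10.03 after vehicle (1.77 ± 0.56, adjusted p = 0.0239). Plk1 read 10.09, 9.60 and 11.07 after Wy-14643 and 8.67, 7.72 and 9.07 after vehicle (1.77 ± 0.61, adjusted p = 0.0434). Prc1 read 9.56, 9.19 and 10.86 after Wy-14643 and 8.02, 7.53 and 8.76 after vehicle (1.77 ± 0.54, adjusted p = 0.0204). In these 3 spindle genes replicate 3 was the highest array of either group and replicate 2 the lowest, and only Aurka's groups overlapped.

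The other mitotic genes that rose at 14D were Mki67, the proliferation antigen Ki-67 (1.74), Kif20a (1.72), Foxm1 (1.13) and Tacc3, a spindle protein (0.87), so 8 of 19 were called. The other replication genes were Mcm5 (1.59), Prim1 (1.22 ± 0.28, adjusted p = 0.00156), Cdt1 (1.09), Rrm2 (1.04), Lig1 (0.95), Rrm1 (0.80) and Mcm7 (0.78), so 8 of 18 were called. Cdc20, the activator of the anaphase-promoting complex, read 11.27, 10.95 and 13.37 after Wy-14643 and 9.79, 8.43 and 11.32 after vehicle, and its difference of 2.02 ± 0.79 was not called (adjusted p = 0.08). Ccne1 had no excess at 14D, with 8.31, 8.03 and 8.37 after Wy-14643 and 8.23, 9.23 and 8.09 after vehicle. Across single arrays left out, Mcm6, Cdk1 and Prim1 kept their call. The count of 16 was 10 without vehicle replicate 1, 3 without vehicle replicate 2, 6 without Wy-14643 replicate 1 and 8 without Wy-14643 replicate 3. The 14D effect minus the 4D effect was called in 0 members by limma and with the block, and 0 of 37 had an unadjusted p under 0.05, against 0.356% of all genes called.

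Over the mean of the 9 times, 26 of 34 members were higher and 2 lower after Wy-14643, against 20.4% and 36.2% of all genes. They were 14 of 18 replication genes and 12 of 16 mitotic genes. Mcm7 (0.65 ± 0.08, adjusted p = 3.04e-09) and Mcm2 (0.72 ± 0.10, adjusted p = 3.44e-08) had the smallest p, and Plk1 (1.06 ± 0.20) and Mcm5 (0.98 ± 0.16) the largest rises. Tk1 (-0.83 ± 0.14, adjusted p = 1.38e-06) and Cks2 (-0.28 ± 0.09, adjusted p = 0.00525) were the lower members. Bub1, a kinase of the spindle checkpoint, was flat on its brightest probe at 4D, with 8.75, 8.88 and 9.19 after Wy-14643 and 9.13, 8.52 and 9.45 after vehicle. Its other probe averaged 8.86 ± 0.19 after Wy-14643 and 7.87 ± 0.82 after vehicle (SD, n = 3 each), so the probes disagree.

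Several members were listed in few groups, counted on the brightest probe. The brightest probe of Kif11, a spindle motor, was listed after Wy-14643 at 1D (7.44, 7.07 and 6.91) and at 4D (7.75, 7.81 and 7.30) and in no other group, while its other probe was listed in the clofibrate arm's vehicle at 4D (6.68 ± 0.29, SD, n = 3). Ccne2, the second E-type cyclin, was listed in 5 groups. They were Wy-14643 at 12H, 24H (7.15, 6.58 and 6.42) and 1D (7.20, 6.95 and 7.12), and vehicle at 18H in the Wy-14643 arm and at 8H in the clofibrate arm. Top2a was listed in 7 groups, which were Wy-14643 at 24H, 1D, 4D and 14D and every other group at 4D. The brightest probe of Cdc6 was listed in 4 groups, after Wy-14643 at 1D (8.06, 7.54 and 8.00) and 4D (8.14, 7.04 and 7.45) and after vehicle at 1D in both arms. Its other probe was listed after Wy-14643 at 1D and 4D and after clofibrate at 12H (7.28 ± 0.42, SD, n = 3). What made the authors' files list a probe or leave it empty is not known here, and no test was made of it.

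Clofibrate gave few calls. At 8H the helicase genes Mcm4, Mcm3 and Mcm2 rose, 3 of 27 members, against 6.21% of all genes. Mcm4 read 12.93, 12.24 and 13.37 after clofibrate and 11.03, 11.64 and 11.48 after vehicle (1.46 ± 0.43, adjusted p = 0.0215). Mcm3 read 11.98, 11.46 and 11.98 after clofibrate and 10.24, 10.52 and 10.55 after vehicle (1.37 ± 0.43, adjusted p = 0.0319). Mcm2 read 9.91, 8.99 and 9.66 after clofibrate and 8.12, 8.26 and 8.36 after vehicle (1.27 ± 0.37, adjusted p = 0.0226). In all 3 genes the groups did not overlap, with replicate 2 the lowest after clofibrate. The median difference at 8H was 0.67 over 16 replication genes and -0.34 over 11 mitotic genes, of which 0 were called. The count was 1 without vehicle replicate 2 or clofibrate replicate 1, and 0 without vehicle replicate 1 or clofibrate replicate 3.

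At the other 8 times limma called 0 members after clofibrate. The members with an unadjusted p under 0.05 numbered 11 of 34 at 18H, where 33 of 34 differences were above 0 (median 0.75), and 13 of 38 at 4D. They numbered 2 at 4H, 1 at 12H and 0 at 2H, 24H, 1D and 14D, and the block added 1 call, Cks2 at 4H (-0.61, adjusted p = 0.0472; 4.63% of all genes were lower with the block). At 24H all 29 differences were above 0, with a mitotic median of 0.78. The mean of the 10 mitotic genes listed on every array read 11.35, 11.13 and 10.36 after clofibrate at 24H. After vehicle it read 9.68, 10.04 and 10.89, so the groups overlapped. Over all genes, limma called 0.304% in either direction at 2H, 2.61% at 4H, 1.33% at 12H, 0.17% at 18H, 0.05% at 24H, 0.17% at 1D, 0.308% at 4D and 0.039% at 14D. These are shares called by adjusted p, a stricter threshold than that of the unadjusted counts. Over the mean of the 9 times 0 of 25 members were called, against 5.75% of all genes, and 2 had an unadjusted p under 0.05. Without the 14D or the 4D array of the near-copy pair the count was also 0.

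At 4D after clofibrate the sign was the other way. These are the clofibrate arrays on which Pdk4 read below vehicle. Of 38 members 36 were lower than vehicle, with a median of -0.40 over replication genes and -1.13 over mitotic genes, and 0 were called by limma or with the block. Cdc20 read 9.99, 10.65 and 11.12 after clofibrate and 13.39, 13.27 and 11.31 after vehicle (-2.07 ± 0.91, adjusted p = 0.544). Aurka read 9.74, 9.91 and 9.73 after clofibrate and 12.48, 11.89 and 10.56 after vehicle (-1.85, adjusted p = 0.401). The clofibrate arrays were all below the vehicle arrays in both genes, by little against vehicle replicate 3. That held for 16 members, 12 of them mitotic, where 5.71% of all genes did the same. Without vehicle replicate 1, whose near-copy stands at 14D, the mitotic median was -0.83. At 14D the median over 35 members was -0.24, and 0.31 without the copied array.

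Among the 9 times, the class medians of the difference between the compounds were highest at 4D. These medians rest in part on the clofibrate arrays at 4D, where Pdk4 read below vehicle. The difference of the effects, Wy-14643 minus clofibrate, each against its own vehicle, was called in 5 of 38 members, against 0.695% of all genes. They were Kif20a (3.33 ± 0.90, adjusted p = 0.0402), Plk1 (3.27 ± 0.89, adjusted p = 0.0436), Ccnb2, a cyclin of Cdk1 (3.14 ± 0.85, adjusted p = 0.0402), Ube2c (2.80 ± 0.74, adjusted p = 0.0373) and Cdk1 (2.68 ± 0.66, adjusted p = 0.022). Cdk1 read 10.80, 10.74 and 10.94 after Wy-14643 and 8.11, 8.02 and 7.90 after clofibrate, against 9.82, 9.46 and 8.50 in the Wy-14643 arm's vehicle and 9.72, 9.31 and 8.36 in the other. Plk1 read 12.39, 12.75 and 12.30 after Wy-14643 and 9.21, 8.91 and 9.08 after clofibrate, against 11.77, 11.40 and 9.68 and 11.72, 11.11 and 9.60 in their vehicles. Both treated groups were tight and lay on opposite sides of vehicle groups that were nearly the same in the 2 arms. The median difference was 2.47 over mitotic genes and 1.25 over replication genes.

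Leaving out replicate number 1, 2 or 3 from both arms left 0 of these 5 calls. With replicate number as a block 12 members were higher (2.71% of all genes), among them Mcm7, Tyms, Lig1 and Aurka. At the other 8 times 0 of the members tested were called by limma, with 20 of 35 under an unadjusted p of 0.05 at 14D and 0 to 5 elsewhere. The block called Lig1 at 14D and Cks2, lower, at 12H. The share of all genes called with the block at those times is not given here. At 14D the median difference was 1.24 over the 35 members, and 0.60 with the copied clofibrate-arm array left out. Over all genes, limma without the block called 0% in either direction at 2H and 4H, 0.0323% at 8H, 0.725% at 12H, 2.86% at 18H, 2.4% at 24H, 0.892% at 1D and 1.96% at 14D. Over the mean of the 9 times Mcm7 (0.42 ± 0.12, adjusted p = 0.00894) and Pcna (0.32 ± 0.11, adjusted p = 0.0312) were higher under Wy-14643 and Tk1 lower (-0.65 ± 0.18, adjusted p = 0.00735), 2 and 1 of 25 members, against 7.31% and 11% of all genes. That count was 1 without number 1, 2 or 3.

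**Figure D4:**
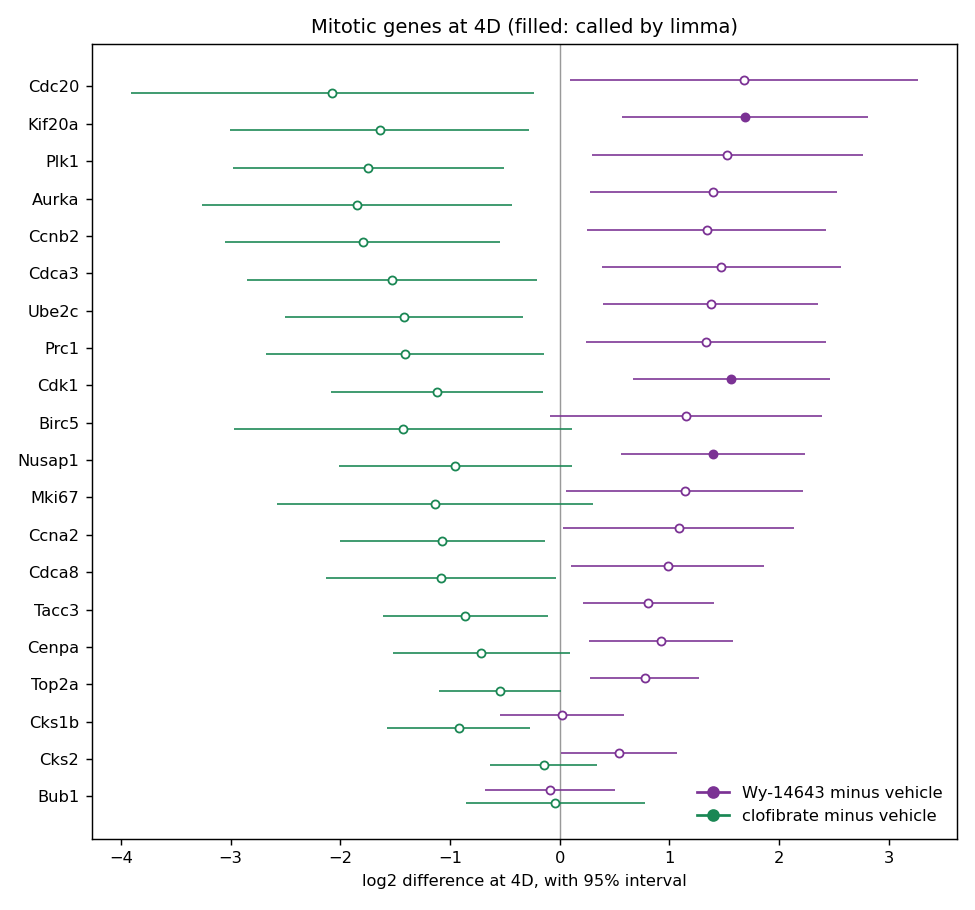
Difference from vehicle at 4D (log2, horizontal, with 95% intervals) for 20 mitotic genes (rows), Wy-14643 above clofibrate in each row. The Wy-14643 values lie mostly right of 0 and the clofibrate values mostly left, as for Cdc20 at 1.68 and -2.07.

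The vehicle groups themselves were high at 4D, the time at which they also read near the ceiling for Ehhadh. The part of whatever set those arrays apart was not tested. In both arms this time was picked with earlier results of these data known. Its calls therefore describe the size of the difference and are no independent evidence of it. In the Wy-14643 arm, vehicle livers at 4D exceeded the mean of vehicle livers at the other 8 times in 16 of 18 mitotic genes and 6 of 18 replication genes, 22 of 36 members, against 1.99% of all genes higher and 1.02% lower. Cdc20 read 13.00, 12.88 and 11.57 at 4D, against a lowest of 7.51, a median of 9.20 and a highest of 12.39 over the 24 vehicle arrays of the other times (2.86 ± 0.59, adjusted p = 0.00249, 7.25-fold). Plk1 read 11.77, 11.40 and 9.68 at 4D, against 7.42, 8.34 and 11.37 (lowest, median, highest) at the other times (2.40 ± 0.46, adjusted p = 0.00118). In both genes 4D replicates 1 and 2 lay above every vehicle array of the other times, and replicate 3 lay below the highest of them.

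Birc5, the passenger complex's survivin, read 13.78, 13.50 and 12.18 at 4D, against 9.56, 10.64 and 13.69 (lowest, median, highest) at the other times (2.35 ± 0.46, adjusted p = 0.00144). Aurka read 12.13, 11.71 and 10.71 at 4D, against 7.92, 9.01 and 11.58 (2.26 ± 0.42, adjusted p = 0.000736, 4.79-fold). Prc1 read 10.88, 10.38 and 9.36 at 4D, against 6.95, 7.68 and 10.34 (2.20 ± 0.41, adjusted p = 0.000736). In Cdc20, Birc5, Aurka and Prc1 the other vehicle arrays that exceeded the lowest 4D array were 2, replicates 1 and 2 of 1D. Ube2c (2.15 ± 0.36, adjusted p = 0.000313) and Tacc3 (1.36 ± 0.22, adjusted p = 0.00016) kept their call without any single array. Of the mitotic genes tested, Cks2 (0.20) and Bub1 (-0.18) were not called. Medians were 1.91 for mitotic and 0.74 for replication genes, and the called replication genes were Mcm6 (1.03), Mcm3 (0.94), Mcm4 (0.89), Prim1 (0.85), Mcm2 (0.79) and Lig1 (0.74). The count of 22 was 2 without 4D replicate 1 and 10 without 4D replicate 2.

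In the clofibrate arm, vehicle at 4D had levels alike in size but 0 of 28 members called, with 18 under an unadjusted p of 0.05, against 0.369% of all genes called. Cdc20 read 13.39, 13.27 and 11.31 at 4D, against 8.36, 9.86 and 13.40 (lowest, median, highest) at the other times (2.59 ± 0.68, adjusted p = 0.0855). Birc5 read 13.90, 13.64 and 12.03 at 4D, against 9.01, 10.85 and 13.89 (2.14, adjusted p = 0.0906). Aurka read 12.48, 11.89 and 10.56 at 4D, against 8.27, 9.33 and 12.51 (2.05, adjusted p = 0.0728). The highest array of the other times was in these 3 genes the 14D near-copy of 4D replicate 1. Cdca3, of mitotic entry, read 11.82, 11.62 and 9.83 at 4D, against 8.04, 9.01 and 11.95 (1.78, adjusted p = 0.11). Mki67 read 12.37, 11.40 and 10.44 at 4D, against 8.54, 9.46 and 12.39 (1.75, adjusted p = 0.191). Without the copied array 7 members were called, against 0.506% of all genes: Cdc20 (2.74, adjusted p = 0.0222), Birc5 (2.27), Aurka (2.19, adjusted p = 0.00938), Cdca3 (1.90), Kif20a (1.86), Prc1 (1.83) and Cdca8 (1.61). Without 4D replicate 1 in its place, 0 of the 28 were called by limma and the mitotic median was 1.34, against 1.85 without the 14D array. Ehhadh read 15.77 on the 14D array of the pair, 14.33 and 14.35 on the other 14D vehicle arrays, and 15.84, 15.96 and 15.89 at 4D. Equal-numbered vehicle arrays of the 2 arms differed on average by at most 1.61 over 25 members, and by at most 0.44 with the 14D array left out. Which of the pair carries its right label was not tested.

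Vehicle arrays of equal number in the 2 arms were close. Their median absolute difference over 25 members listed on every array was 0.29 over 26 pairs, the copied array apart, and 0.56 over 52 pairs of unequal number at the same time. The labels do not say whether the arms' 4D vehicle levels are separate measurements.

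Vehicle mice at 1D also ran high in mitotic genes, and they were killed as long after the first dose as those of 24H. The 1D minus 24H vehicle difference had a mitotic median of 1.25 in the Wy-14643 arm, where 0 of 38 members were called by limma, 19 had an unadjusted p under 0.05, and 0.19% of all genes were called. In the clofibrate arm it was 1.37, with 0 of 29 called, 8 under an unadjusted p of 0.05 and 0.00992% of all genes called. Cdc20 read 12.02, 12.39 and 8.88 in the 1D vehicle of the Wy-14643 arm and 11.98, 13.02 and 9.16 in that of the clofibrate arm. Replicates 1 and 2 were high and replicate 3 low in both arms. Vehicle at 4D against vehicle at 14D gave 13 of 37 members higher in the Wy-14643 arm, against 0.965% of all genes, with 9 of them mitotic. Of these 13 calls, 0 were kept without 4D replicate 1, 4D replicate 2 or 14D replicate 2. Without 14D replicate 1, 3 were kept, and without replicate 3 of 4D or 14D, 13 and 12. A fit of only the groups compared kept 0. In the clofibrate arm limma called 0 of 35, where 2 had an unadjusted p under 0.05 and 0% of all genes were called. Both 4D and 14D there hold an array of the near-copy pair. The median over the 35 members was 1.36 without the 14D array, with 0 called and 25 under an unadjusted p of 0.05, and 0.41 without the 4D array, with 0 called and 0 under it.

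**Figure D5:**
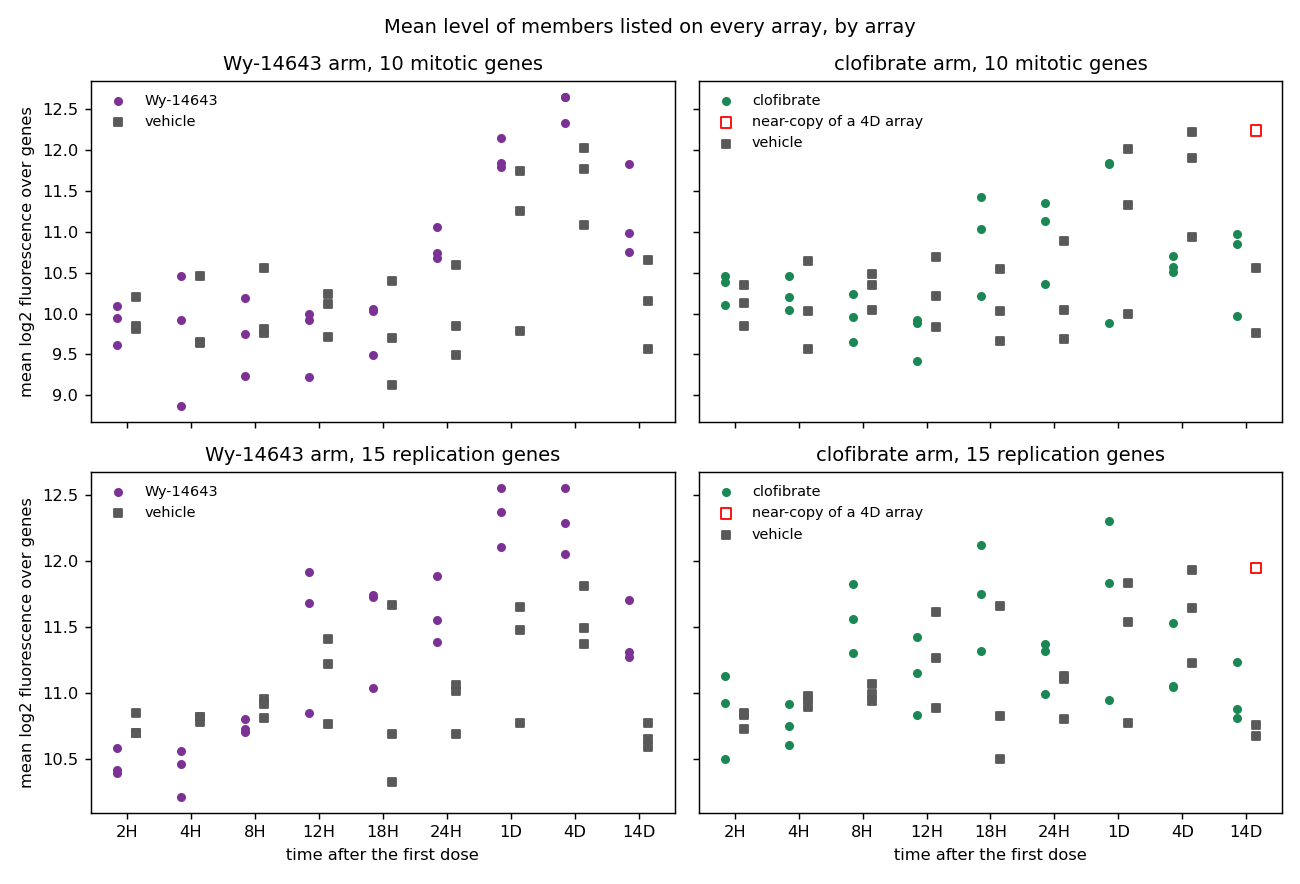
Mean level on each array (log2, vertical) of the 10 mitotic and 15 replication genes listed on every array, at 9 times (horizontal), compound left of vehicle in each arm, with the near-copy array as a red open square. At 4D the mitotic mean is 12.34 to 12.65 after Wy-14643 and 11.08 to 12.02 after its vehicle, and 10.51 to 10.70 after clofibrate and 10.93 to 12.22 after its vehicle.

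Other cells that divide or travel through liver were read on the same arrays. At 4D the 10 listed of 12 Kupffer cell markers (Cd68 and Emr1 not listed) averaged 11.20 to 11.55 after Wy-14643 and 11.74 to 12.28 after vehicle, with 3 of them lower. After Wy-14643 3 of the 10 were lower at 18H, 5 at 24H, 4 at 1D, 0 at 14D and 9 over the mean of the times, and 0 of the 10 were called in vehicle at 4D against the other times. Over all genes, limma called 12.2% lower at 18H, 10.5% at 24H, 15.9% at 1D, 4.3% at 4D, 5.35% at 14D and 36.2% over the mean. In vehicle at 4D it called 1.99% higher and 1.02% lower. These shares stand beside each marker count of the Wy-14643 arm here. The 10 lymphocyte markers listed, Lck not among them, averaged 9.17 to 9.80 after Wy-14643 and 9.70 to 9.79 after vehicle at 4D, with 0 of 8 tested called in that comparison and 0 of 5 in vehicle at 4D. The 5 erythroid markers listed, Hbb-b1, Epb4.2 and Ermap not among them, averaged 10.84 to 11.49 after Wy-14643 and 11.28 to 11.49 after vehicle at 4D, and 1, Klf1, was lower in vehicle at 4D. After Wy-14643 Alas2 and Klf1, 2 of 5, were lower at 18H, 24H and 1D, 0 at 4D and 14D, and 3 over the mean. Of the hepatocyte markers, 3 of 4 tested were lower over the mean, Apoa1, Tat and Ttr. Apoa1 and Tat read near the ceiling of log2 16 on most arrays, so only Ttr of these 3 was read clear of it. Neutrophil markers were listed for 6 of 9, without Ly6g, Ltf and Elane, and 3 were lower after Wy-14643 at 1D, against vehicle arrays of which replicate 3 was far above the others. At 4D after clofibrate the Kupffer markers averaged 11.48 to 12.99 after the compound and 11.96 to 12.53 after vehicle, with 0 of 10 called, against 0.308% of all genes. The part of these cells in the members' levels was not tested.

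The wider pathway moved unevenly. Of the other replication genes, 1 of 34 tested was higher after Wy-14643 at 4H, 2 of 34 at 8H, 3 of 35 at 12H, 8 of 36 at 18H, 2 of 36 at 24H, 18 of 37 at 1D, 5 of 40 at 4D and 9 of 36 at 14D. The lower ones were 5 at 4H, 3 at 8H, and 1 at each of 12H, 1D and 14D, against 6.34%, 9.22%, 10.1%, 15.9% and 5.35% of all genes. Over all genes the higher shares at those times were 4%, 6.94%, 9.47%, 10.2%, 6.71%, 7.39%, 3.95% and 9.48%. Over the mean of the times 16 of 33 were higher and 2 lower, against 20.4% and 36.2% of all genes. Gins4 (0.87 ± 0.05, adjusted p = 1.25e-19) and Gins2 (0.64 ± 0.09), of the GINS complex that works with the helicase, and Pole, the leading-strand polymerase (0.49 ± 0.12), were higher, and Mcm10, a helicase activator, was lower (-0.54 ± 0.12). Of 43 other mitotic genes (Fam64a not listed), 1 of 18 was higher at 4H, 1 of 20 at 8H, 1 of 21 at 12H, 2 of 17 at 18H, 4 of 20 at 24H, 9 of 26 at 1D, 10 of 36 at 4D and 13 of 25 at 14D, with 1 to 3 lower at each of these times. Over the mean, Spc25, of the kinetochore (1.65 ± 0.10, adjusted p = 7.33e-18), and Nek2, a centrosome kinase (1.08 ± 0.13), were among 8 of 15 higher, and Cdca2 (-0.82 ± 0.05) and Ccnf (-0.58 ± 0.08) were among 3 lower. Spc25 was called from 4H on and was 1.82 higher at 8H, when 0 mitotic members had risen, and it also rose after clofibrate at 8H (1.55 ± 0.40, adjusted p = 0.00776).

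Of 33 G1 regulators, E2F and DREAM components, 11 of 28 were higher and 9 lower over the mean of the times after Wy-14643, against 20.4% and 36.2% of all genes, so the lower share was near that of all genes. Cdkn1a, the kinase inhibitor p21, was higher (1.88 ± 0.20), as were E2f8, a repressing E2F (1.20 ± 0.07), and Myc, the growth factor-responsive transcription factor (0.81 ± 0.20), while Cdkn1b, the inhibitor p27, was lower (-0.45 ± 0.08). E2f8 was 1.82 ± 0.21 higher at 2H, when 0 members had risen, and 2.24 ± 0.26 higher after clofibrate at 8H (adjusted p = 3.37e-07). Ccnd1, the D-type cyclin of G1, was lower after Wy-14643 at 14D (-1.54 ± 0.44, adjusted p = 0.0115), when 16 members were higher. In vehicle at 4D of the Wy-14643 arm, 11 of 17 other mitotic genes and 4 of 34 other replication genes were higher, with 0 lower. Over all genes 1.99% were higher and 1.02% lower there.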

How the data were processed

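The authors deposited log2 fluorescence values per probe and array, from single-colour Cy3 Agilent arrays per the labels. For image reading, background, normalization, slides and scan dates, the methods were not given in the sources used here. In all 41189 entries were read, 93 of them controls. Of the other 41096 probes, 32609 have 1 symbol in the platform annotation, 44 several and 8443 none, and only those with 1 were used. Of all values, 51.5% are empty, and 99.935% of probes per group are empty on all or none of the 3 arrays. Genes with several probes (6066) are read by the brightest.

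Each array was shifted by its 75th percentile (12.31 to 13.08) over the 12210 probes listed on every array. limma 3.58.1 in R 4.3.3 fitted 1 mean per group with a variance trend over each arm, and over all 108 arrays for the difference of compounds. A gene was tested where every array compared held a value and at least 1 group averaged under 15.95, near the ceiling of 16. P-values were adjusted by Benjamini-Hochberg over all genes tested, with calls at 0.05. Tests were tried on simulated data. An exact test of 3 arrays against 3 cannot go below p = 0.10.

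Replicates are biological per the series text. The replicate numbers pair arrays in the Wy-14643 arm, where residuals of equal-numbered compound and vehicle arrays correlated above 0.1 for all 3 numbers at 9 of 9 times, and in the clofibrate arm at 7 of 9 (not 8H and 1D). The paired fit, on differences of equal-numbered arrays, is called the block. Other alternatives were the deposited values unscaled, quantile normalization, the mean of probes, only the groups compared, and each array left out. Removal of the copied array and the 1D and 14D vehicle comparisons were added after seeing the data.

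All 46 members could be named. Values by array are given for the 5 largest differences among calls at 14D of Wy-14643, the 5 largest vehicle differences at 4D in each arm, each clofibrate call, and other members chosen after their values were seen. The members, lists and comparisons were chosen with earlier results of these data known. Promoters were searched in Python 3.11.15, and figures drawn with matplotlib 3.10.9. Some genes of the marker and pathway lists are not reported here.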

Additional observations from a re-analysis of the deposited data

How the results depend on the processing

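Over single times, 76 calls of a member were made after Wy-14643 or clofibrate. With replicate number as a block 76 of the 76 kept their call, as did 74 with quantile normalization, 72 with unscaled deposited values, 50 in fits of only the groups compared, and 67 of 68 tested with the mean of probes. No such call turned sign. Counts of called members moved by over 1.5 times as follows. After Wy-14643 at 2H the count was 2 with the mean of probes or the block and 0 with only the groups compared, and at 4H it was 0 unscaled. At 12H it was 8 with the block, and at 18H 12 with the block and 3 with only the groups compared. At 24H it was 34 unscaled, 18 with the block and 27 with only the groups compared, and at 1D 38 unscaled and 5 with only the groups compared. At 4D it was 15 with quantile normalization, 5 with the mean of probes, 22 with the block and 21 with only the groups compared. After clofibrate, where the numbers do not pair arrays at 8H, the block gave 5 at 8H and 1 at 4H. For the difference of compounds, the mean over times had 8 unscaled and 6 with the block, and single times had 12 unscaled, 0 with the mean of probes, 14 with the block and 15 with only the groups compared. Unscaled, the median of all genes moved to 0.25 at 24H and 0.47 at 1D after Wy-14643, against -0.14 and -0.15 with scaling, so the larger unscaled counts there include this shift. With 1 array left out, counts after Wy-14643 ran from 0 to 1 at 2H, 0 to 2 at 4H, 2 to 7 at 12H, 1 to 16 at 18H, 0 to 9 at 24H, 8 to 33 at 1D, 0 to 10 at 4D, 3 to 16 at 14D and 25 to 30 for the mean. They ran from 2 to 27 for vehicle at 4D in the Wy-14643 arm, 0 to 7 in the clofibrate arm, and 0 to 4 after clofibrate at 8H. With 1 replicate number left out, the difference of compounds had 1 call for the mean and 0 at single times. Paired fits were not made for the vehicle comparisons, whose times hold different mice. The group size of 3 and the unknown rule for listing a probe limit what was detectable.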
